A study of Mus musculus with 25 samples.

Results

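H3K9me3 peaks on chromosomes 1 to 19 were compared between vhl-/- and wild-type regenerating myofibers, using 3 peak lists per genotype. These are 6 of the 24 peak lists of the study, chosen by genotype and antibody, and they held 10298 autosomal peaks of 55242 peaks in all. The libraries were made by chromatin immunoprecipitation sequencing (ChIP-seq) with an antibody against histone H3 trimethylated at lysine 9. All mice, controls included, carried the mito-Dendra2 allele under a Pax7-Cre(ERT2) driver, so that fluorescent myofibers derive from muscle stem cells. Only the vhl-/- group lacked Vhl. Tamoxifen was given at 75 mg/kg on 5 days, BaCl2 (50 µL at 1.2%) was injected into the tibialis anterior 2 days later, and fibers positive for Dendra2 were taken 14 days after injury (14 dpi). The driver acts in muscle stem cells, so nuclei of other cells in the dissected tissue keep Vhl. The study's figure legends call the libraries of a group biological replicates, without naming the mouse behind each vhl-/- library. The labels give neither the age, the sex nor the strain background of the mice, so none of these can be told apart from genotype here.

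H3K9me3 marks silent heterochromatin. SETDB1 deposits it at repeats derived from transposons, where KRAB zinc finger proteins and TRIM28 guide it, and SUV39H enzymes deposit it at pericentric repeats. It also covers clusters of tandemly duplicated genes, among them KRAB zinc finger genes and chemosensory receptor genes. VHL marks HIF1α for degradation, and several of the JmjC-domain demethylases that remove H3K9me3 are encoded by HIF target genes.

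Vhl had 0 assigned peaks in each of the 6 lists, which therefore cannot show the deletion. Sequencing depth is unknown because the lists hold no read totals. The score of a peak, as deposited, is its p-value from the peak caller as a negative log10 multiplied by 10, is at least 50 in these lists, and grows with depth. A shorter list can therefore come from fewer reads. Most comparisons were thus made on the full autosomal lists and on the 1039 strongest peaks of each list (the equal lists), 1039 being the length of the shortest. Peaks on the sex chromosomes moved with genotype too, with 694 to 762 on X and 15 to 19 on Y in the wild-type and 44 to 69 on X and 28 to 40 on Y in the vhl-/- lists, and the part of this difference in the autosomal results was not tested. With 3 lists a side, the exact permutation test over 20 arrangements cannot give a two-sided p under 0.1, so none of these comparisons of single values can pass 0.05.

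Promoter sequences are shown for Sp110 and Sp140, since these neighbouring promoters on chromosome 1 carried a peak in every wild-type list and in no vhl-/- list, and for A530040E14Rik and Ugt1a1, on the same chromosome, which carried a peak in all 6 lists. SP110 and SP140 are nuclear body proteins that bind chromatin, and UGT1A1 conjugates bilirubin. These genes were chosen after their values were seen. Each window runs from 250 bases before to 50 bases after the start of the gene in RefSeq (GRCm38.p6, the assembly also named mm10), 5′ to 3′ on the strand of the gene, with CG dinucleotides, the sites of DNA methylation, in capitals.
Sp110 (chr1:85598761-85599060, minus strand): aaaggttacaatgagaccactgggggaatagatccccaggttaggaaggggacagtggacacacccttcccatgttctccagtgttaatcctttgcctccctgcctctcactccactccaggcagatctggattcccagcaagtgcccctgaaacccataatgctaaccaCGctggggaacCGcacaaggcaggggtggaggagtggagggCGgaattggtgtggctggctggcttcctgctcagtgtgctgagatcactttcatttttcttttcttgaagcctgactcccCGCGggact
Sp140 (chr1:85600453-85600752, plus strand): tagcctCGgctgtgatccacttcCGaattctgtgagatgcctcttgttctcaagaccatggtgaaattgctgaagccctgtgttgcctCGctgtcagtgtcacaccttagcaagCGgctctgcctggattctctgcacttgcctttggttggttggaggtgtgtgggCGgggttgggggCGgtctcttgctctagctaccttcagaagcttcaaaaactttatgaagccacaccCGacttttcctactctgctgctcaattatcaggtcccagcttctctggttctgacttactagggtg
A530040E14Rik (chr1:85105843-85106142, plus strand): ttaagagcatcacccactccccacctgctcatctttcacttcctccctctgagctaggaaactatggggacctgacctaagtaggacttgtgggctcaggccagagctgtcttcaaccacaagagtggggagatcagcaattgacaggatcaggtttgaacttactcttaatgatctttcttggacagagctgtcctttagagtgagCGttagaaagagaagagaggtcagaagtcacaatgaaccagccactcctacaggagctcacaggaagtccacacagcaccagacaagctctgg
Ugt1a1 (chr1:88211709-88212008, plus strand): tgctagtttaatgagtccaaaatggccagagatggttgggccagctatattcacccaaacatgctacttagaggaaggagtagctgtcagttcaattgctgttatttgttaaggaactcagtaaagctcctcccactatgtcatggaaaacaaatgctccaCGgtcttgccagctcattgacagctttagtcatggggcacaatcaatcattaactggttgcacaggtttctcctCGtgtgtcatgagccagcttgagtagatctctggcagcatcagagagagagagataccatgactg

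In the wild-type lists a single peak spanned the promoters of Sp110 and Sp140, with scores of 294, 176 and 235 in replicates 1 to 3. The absence in vhl-/- lists holds for these windows of 300 bases. The stretch of overlapping peaks around them is not among the 36 regions, described below, that lack a vhl-/- peak in the equal lists. At Ugt1a1 the scores were 148, 85.2 and 288 in wild-type and 60.8, 86.6 and 55.7 in vhl-/- lists, and the ranges overlapped. The Sp110 and Sp140 windows hold 5 and 7 CG dinucleotides, and those of A530040E14Rik and Ugt1a1 hold 1 and 2, where the median over 31396 autosomal RefSeq promoters is 7 and 94.8% hold at least 1. The core of the hypoxia response element (ACGTG, or CACGT on the other strand) is in none of the 4 windows and in 19.7% of all these promoters. Promoter windows with any peak were rare, at 76 of 31396. Gm46178 was the only other promoter with a peak in all 3 wild-type and 0 vhl-/- lists, and 0 promoters had the reverse pattern. These promoter counts come from the full lists, which are shorter in vhl-/-, and were not repeated on equal lists.

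Fewer H3K9me3 peaks were called in vhl-/- myofibers. The wild-type lists held 2176, 2407 and 2239 autosomal peaks, and the vhl-/- lists held 1039, 1122 and 1315. The groups did not overlap, with means of 2274 ± 119 (SD, n = 3) and 1159 ± 142 (n = 3), a ratio of 0.510 (exact permutation test, two-sided p = 0.1). The length covered was 2.07 ± 0.133 Mb in wild-type and 1.11 ± 0.153 Mb in vhl-/- lists (n = 3 each, exact permutation p = 0.1). Peaks longer than 5000 bp numbered 30 to 35 in wild-type and 14 to 21 in vhl-/- lists.

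The scores of the strongest peaks differed as well, though scores grow with depth. The highest autosomal score lay between 2851 and 2962 in wild-type lists and between 856 and 1009 in vhl-/- lists. Among the 1039 strongest peaks, the median score was 76.9 ± 1.53 in wild-type and 61.2 ± 1.90 in vhl-/- lists, the median length was 737 ± 28.8 bp and 642 ± 23.2 bp, and the covered length was 1.27 ± 0.0197 Mb and 1.03 ± 0.0629 Mb (n = 3 each, exact permutation p = 0.1 for each). Equal lists reach further down the shorter vhl-/- lists, with lowest scores of 50.05 to 53.7, against 63.1 to 64.3 in wild-type. The equal-list differences therefore depend in part on list length. With all peaks, the median score was 62.2 ± 0.357 in wild-type and 59.6 ± 0.489 in vhl-/- lists. The median length of all peaks went the other way, at 598 ± 2.00 bp in wild-type and 626 ± 3.06 bp in vhl-/- lists.

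**Figure D1:**
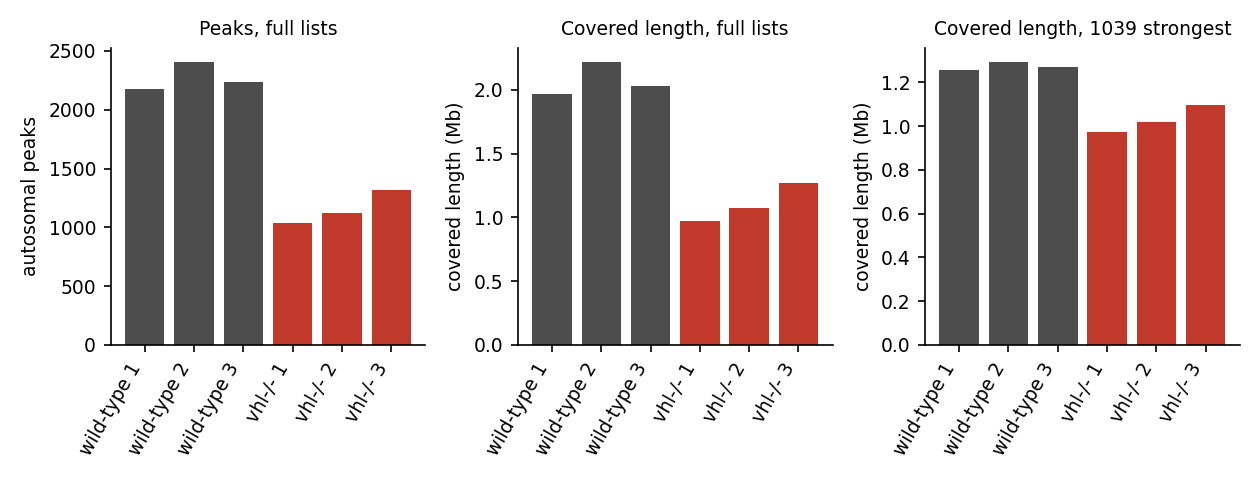
Autosomal H3K9me3 peaks (left), the length they cover in Mb (middle) and the length covered by the 1039 strongest peaks (right), with a bar for each library, wild-type in grey and vhl-/- in red. The vhl-/- bars lie below the wild-type bars in each panel, and the gap narrows where lists of equal length are compared.

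Lists of the same genotype shared more ground than lists of different genotypes. The Jaccard index, which divides the sequence that both lists cover by the sequence that at least 1 of them covers, was 0.206 on average within wild-type, 0.188 within vhl-/- and 0.125 between genotypes, where the 9 pairs ranged from 0.117 to 0.137. The difference of within and between was 0.0722 (exact permutation test, one-sided p = 0.1, the smallest the 10 divisions of 6 lists allow). With equal lists the averages were 0.279, 0.199 and 0.157. Most regions belonged to a single library, with 6216 of 7341 merged regions (84.7%) found in 1 list and 81 in all 6.

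Distal intergenic sequence held most peaks in both genotypes, and more of them in vhl-/-. In the equal lists, distal intergenic peaks made up 53.6%, 53.8% and 54.3% of the wild-type lists and 61.5%, 62.4% and 62.5% of the vhl-/- lists. Promoter peaks (within 3 kb of a start site) made up 19.9 ± 0.338% and 15.2 ± 1.26%, and intron peaks 17.5 ± 0.147% and 15.0 ± 0.841% (n = 3 each). Peaks in 3′ UTRs made up 3.37% to 3.56% and 2.21% to 2.79%. None of these ranges overlapped, and for each p = 0.1 by exact permutation and 0.175 after adjustment over the classes.

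The class shares depended on list length and on the score cut. At a score of at least 100 the promoter difference (vhl-/- minus wild-type) was -0.765 percentage points (exact permutation p = 0.8). In the full lists the promoter shares overlapped, at 14.9 ± 0.821% in wild-type and 14.8 ± 1.63% in vhl-/- lists (n = 3 each, exact permutation p = 0.8), and the distal intergenic shares were 59.8 ± 1.79% and 62.8 ± 1.30% (p = 0.1). Intron was the only class whose vhl-/- values lay below those of every wild-type list at both lengths, with 19.02 ± 0.650% and 15.2 ± 0.944% in the full lists. The block of chromosome 13 described next bears on these values. Without it, the distal intergenic share of the full lists was 59.7 ± 1.95% and 60.03 ± 1.75% (exact permutation p = 0.7), and that of the equal lists 53.8 ± 0.257% and 59.1 ± 0.834% (p = 0.1).

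**Figure D2:**
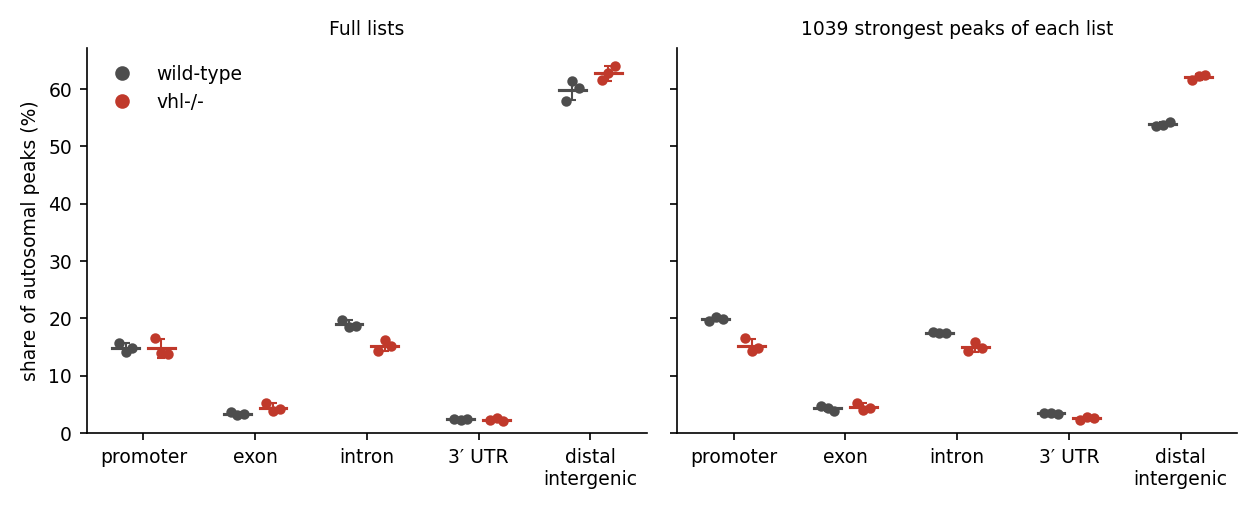
Share of autosomal peaks in 5 annotation classes in percent, for the full lists (left) and the 1039 strongest peaks (right), with a point for each library, lines at the means and bars of 1 SD. Distal intergenic shares separate clearly in the equal lists, and promoter shares do so there only.

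Chromosome 13 stood apart from the other autosomes. In the equal lists it held 70, 62 and 60 peaks in wild-type and 200, 204 and 193 in vhl-/-, or 6.16 ± 0.509% and 19.2 ± 0.536% of the list (n = 3 each, exact permutation p = 0.1, adjusted p = 0.237 over 19 autosomes). Even in the full lists, where vhl-/- had fewer peaks on every other autosome on average, chromosome 13 had more, with 141 ± 3.46 peaks in wild-type and 212 ± 13.2 in vhl-/-. Among peaks with a score of at least 100, chromosome 13 held 16, 10 and 12 in wild-type and 41, 46 and 58 in vhl-/- lists, and the rest of the autosomes 240 to 276 and 78 to 96.

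The share of chromosome 4 went the other way, at 16.2 ± 0.722% in wild-type and 10.4 ± 1.06% in vhl-/- equal lists, as did that of chromosome 7, at 15.4 ± 0.484% and 10.0 ± 0.547%. Chromosomes 1, 5 and 17 were also lower without overlap, and chromosomes 3 and 14 higher. An equal list has a fixed length, so peaks gained in a cluster take the place of others.

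**Figure D3:**
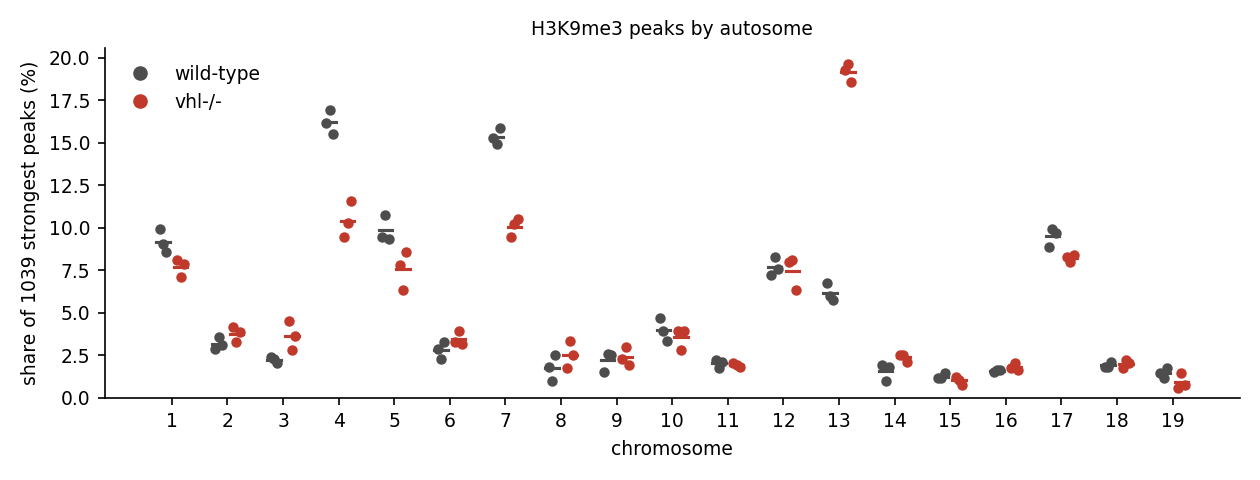
Share of the 1039 strongest H3K9me3 peaks on each autosome in percent, with a point for each library and a line at each mean. Chromosome 13 rises from about 6.16% in wild-type to 19.2% in vhl-/-, while chromosomes 4 and 7 are lower in vhl-/-.

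Most of the gain lay between 62 and 67 Mb of chromosome 13, a stretch called the block here. In the equal lists all of its peaks lay in the 1 Mb windows that start at 62, 65 and 66 Mb, so they were not continuous. The block held 27, 23 and 29 of the 1039 strongest peaks in wild-type and 152, 145 and 150 in vhl-/- lists. These are 2.53 ± 0.294% and 14.3 ± 0.347% of the list (n = 3 each, exact permutation p = 0.1). Elsewhere on the chromosome the groups overlapped, with 31 to 43 peaks in wild-type and 43 to 59 in vhl-/- equal lists, although once the block was taken out of the lists chromosome 13 still held a larger share in vhl-/-, by 1.90 percentage points of the equal and 1.66 of the full lists (exact permutation p = 0.1 for each). In the block, 79.9 ± 0.923% of the vhl-/- peaks were distal intergenic, against 58.7 ± 10.6% of the few wild-type peaks.

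Windows of 1 Mb located the differences more finely. Of 1141 windows with a peak in any equal list, 22 had more peaks in every vhl-/- than in any wild-type list (1.93%) and 35 had fewer (3.07%). A limma test on log2(peaks + 1), added after the data were seen, was run over the 86 windows with at least 12 peaks in total. It called 9 windows higher in vhl-/- (10.5%) and 13 lower (15.1%) at an adjusted p under 0.05, with a median log2 difference over the tested windows of -0.18. On the full lists, which are shorter in vhl-/-, limma called 3 windows higher and 60 lower of 133 tested. All 13 lower windows of the equal lists were called there too, but only 3 of the 9 higher ones, those from 65 to 66 and from 66 to 67 Mb of chromosome 13 and from 115 to 116 Mb of chromosome 12. Of the 9 higher windows 3 were on chromosome 13, 2 on chromosome 7 and 1 on chromosome 4. Of the 13 lower ones 4 were on chromosome 7 and 3 on chromosome 4. The tested windows were not counted by chromosome, so no concentration is read from this split.

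Between 66 and 67 Mb of chromosome 13 there were 8, 4 and 9 peaks in wild-type and 75, 68 and 73 in vhl-/- equal lists, a difference of 3.25 ± 0.276 (SE) on the log2(peaks + 1) scale (limma, adjusted p = 0.000524). In the full lists the peaks of this window covered 11.5, 11.2 and 8.87 kb in wild-type and 82.3, 81.6 and 99.6 kb in vhl-/-. The window before it, from 65 to 66 Mb, had 13, 9 and 8 against 53, 51 and 51 peaks, a log2 difference of 2.29 ± 0.182 (limma, adjusted p = 0.000524). The 2 windows hold 46 and 40 RefSeq genes, of which 23 and 18 are pseudogenes, and 27 and 25 carry only a predicted gene name starting with Gm. Between 62 and 63 Mb the lists had 6, 10 and 12 against 24, 26 and 26 peaks (log2 difference 1.40 ± 0.249, limma adjusted p = 0.00977), a gain that was not called in the full lists, with 13, 19 and 25 against 24, 26 and 31 peaks (limma adjusted p = 0.133).

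A second gain lay in the variable segments of the immunoglobulin heavy chain locus, which B cells rearrange to make antibodies. From 115 to 116 Mb of chromosome 12, where 54 of 76 RefSeq genes are Ighv segments, wild-type equal lists had 2, 0 and 0 peaks and vhl-/- lists 28, 28 and 21 (log2 difference 4.20 ± 0.481, limma adjusted p = 0.00151). Counted over all Ighv segments, 2, 4 and 2 wild-type peaks compared with 32, 27 and 25 in vhl-/-. The Ighv segments were singled out after their values were seen. Smaller gains, called in the equal lists alone, were from 17 to 18 Mb of chromosome 17 (10, 11 and 9 against 20, 18 and 19 peaks) in 2 windows of chromosome 7 between 7 and 10 Mb that hold 14 and 11 RefSeq Vmn2r genes, in 1 window of chromosome 14 (0, 0 and 1 against 4, 5 and 3) and in 1 of chromosome 4 (1, 1 and 1 against 4, 3 and 7).

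The largest loss, by number of peaks, was from 147 to 148 Mb of chromosome 4, a cluster of zinc finger genes. Its wild-type lists had 62, 61 and 67 peaks and its vhl-/- lists 29, 27 and 32 (log2 difference -1.09 ± 0.0875, limma adjusted p = 0.000524), and all its peaks in the full lists covered 179, 190 and 160 kb against 41.9, 53.3 and 83.7 kb. The neighbouring window from 145 to 146 Mb had 49, 65 and 52 against 31, 36 and 39 peaks (log2 difference -0.63 ± 0.140, limma adjusted p = 0.0220). On chromosome 1, from 85 to 86 Mb, where Sp110 and Sp140 lie, 63, 52 and 48 peaks compared with 34, 30 and 32 (log2 difference -0.74 ± 0.119, limma adjusted p = 0.00640). The Sp140 gene body, at chr1:85617123-85629329, kept a peak in all 6 lists, while its promoter did not.

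Other windows were close to empty in vhl-/-. From 20 to 21 Mb of chromosome 7, 21, 18 and 27 wild-type peaks compared with 0, 0 and 1 in vhl-/- lists. The next windows, from 21 to 22 Mb (10, 11 and 14 against 0, 0 and 1) and from 22 to 23 Mb (23, 23 and 24 against 0, 2 and 1), followed the same pattern. These 3 windows hold 26, 24 and 25 RefSeq Vmn1r genes, which encode pheromone receptors of the vomeronasal organ. From 15 to 16 Mb of chromosome 5 there were 8, 9 and 9 peaks in wild-type and 0 in each vhl-/- list (limma adjusted p = 0.000276), and from 13 to 14 Mb of chromosome 17, where the t-complex genes Smok2a, Smok2b and Tcp10c lie, 26, 23 and 35 against 4, 7 and 5 (log2 difference -2.20, limma adjusted p = 0.00151). The remaining called windows were from 15 to 16 Mb of chromosome 7 (21, 17 and 19 against 7, 7 and 9 peaks), 2 on chromosome 12 and 1 each on chromosomes 4 and 19.

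Gene by gene, the changes followed these clusters. In the equal lists 40 of 2065 genes had more peaks in every vhl-/- than in any wild-type list (1.94%), and 58 had fewer (2.81%). Over the 91 genes with at least 12 peaks in total, limma called 12 higher (13.2%) and 13 lower (14.3%), and on the full lists 8 higher and 64 lower of 159 tested, among them 8 of the 12 higher and all 13 lower genes of the equal lists. The 4 gains not called there were Zfp960, Zfp97, Zfp997 and BC048507. Leaving out a wild-type library reduced the lower calls to 8 without replicate 1 and to 7 without replicate 2 or 3. Of the 12 higher genes, 10 were on chromosome 13 and 2 on chromosome 17. Of the 13 lower genes, 6 were on chromosome 4 and 3 on chromosome 17. The tested genes were not counted by chromosome either. The authors' annotation gives each peak to a gene, so a peak far from any gene still carries a gene name.

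Zfp640, a zinc finger gene at chr13:66670274-66680803, had the widest gain, with 0, 1 and 2 peaks in wild-type and 34, 28 and 28 in vhl-/- (log2 difference 4.09 ± 0.410, limma adjusted p = 0.00291). Its neighbour Zfp998 had 1, 1 and 1 against 17, 13 and 22 (log2 difference 3.17 ± 0.227, adjusted p = 0.000862 by limma). The predicted genes Gm26639 (2, 1 and 0 against 17, 21 and 20), Gm10139 (1, 2 and 0 against 10, 10 and 12) and Gm26806 (1, 0 and 4 against 9, 12 and 8) rose too. So did 2 pseudogenes, Rybp-ps, with 5, 1 and 3 against 18, 17 and 15 peaks, and Cbx3-ps1, with 2, 1 and 3 against 12, 9 and 11. The parents of these copies encode a Polycomb protein and a heterochromatin protein that binds H3K9me3. Zfp808, at chr13:62129857-62173938, had 2, 1 and 5 against 11, 13 and 15 peaks, and the groups did not overlap for any of these 8 genes, the condition under which they were chosen.

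Smok2a, which encodes a sperm motility kinase of the t complex (chr17:13221188-13227658), fell from 10, 7 and 9 peaks to 1, 0 and 0 (log2 difference -2.93 ± 0.334, limma adjusted p = 0.00307). Tcp10c, another t-complex gene expressed in testis, fell from 7, 8 and 13 to 1, 2 and 1 (log2 difference -2.13 ± 0.302, limma adjusted p = 0.00513). The zinc finger genes Zfp534 (10, 11 and 8 against 2, 3 and 3) and Zfp985 (9, 9 and 13 against 4, 5 and 4) of chromosome 4 fell as well. Zfp987, on the same chromosome, had 13, 9 and 10 against 4, 1 and 6 peaks without overlap, but missed the threshold (limma adjusted p = 0.0730). Of the less studied genes, 5730507C01Rik (8, 10 and 11 against 3, 1 and 1), Gm20707 (7, 8 and 5 against 1, 2 and 0) and C130026I21Rik (17, 13 and 13 against 10, 8 and 9) fell.

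**Figure D4:**
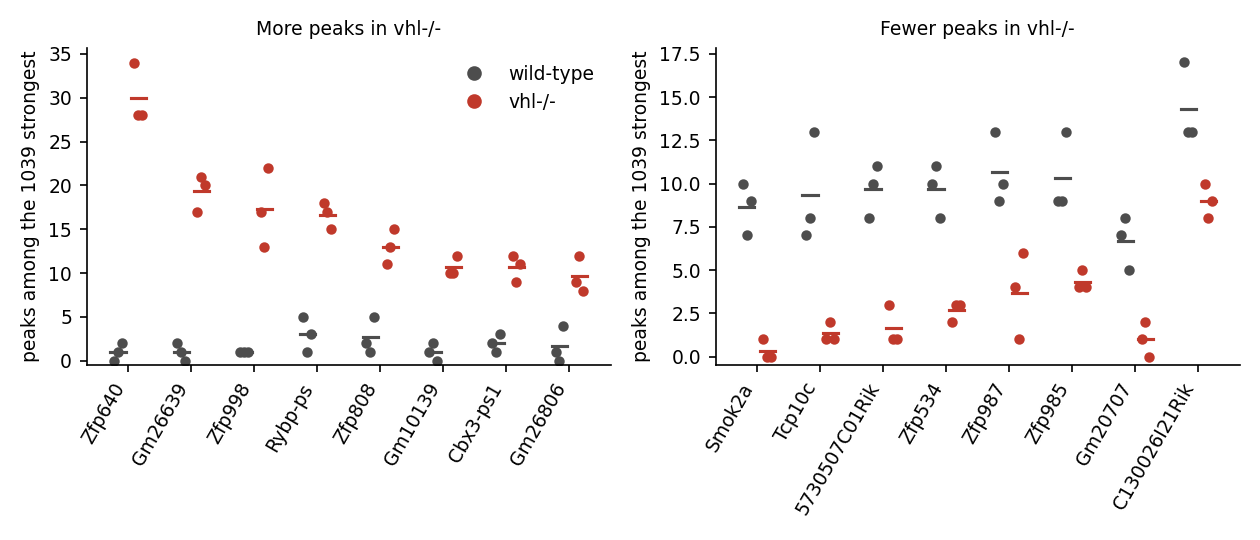
Peaks assigned to each gene among the 1039 strongest of a list, for the 8 genes with the widest gain (left) and the 8 with the widest loss (right) in vhl-/-, with a point for each library and a line at each mean. The left panel reaches 34 peaks at Zfp640, against at most 2 in wild-type, and the points of the genotypes do not overlap for any gene, the condition by which the genes were chosen.

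Peaks assigned to zinc finger genes changed in opposite directions on chromosomes 13 and 4. They took 14.1 ± 0.625% of the peaks in wild-type and 19.4 ± 1.92% in vhl-/- full lists (n = 3 each, exact permutation p = 0.1), but 18.5 ± 1.00% and 20.3 ± 1.11% in equal lists, where the groups overlapped (p = 0.3). On chromosome 13 zinc finger genes had 22, 20 and 21 peaks in wild-type and 83, 80 and 82 in vhl-/- equal lists, and on chromosome 4 they had 82, 89 and 83 against 42, 38 and 49. Elsewhere the groups overlapped, with 32 to 37 against 35 to 41 peaks on chromosome 17, 18 to 21 against 11 to 22 on chromosome 7, and 28 to 40 against 21 to 36 on the other autosomes. Without the chromosome 13 block the zinc finger share of equal lists was 17.9 ± 1.12% in wild-type and 15.7 ± 1.15% in vhl-/-, the reverse order. Few genes carried the rise on chromosome 13. In vhl-/- equal lists Zfp640, Zfp998 and Zfp808 averaged 30, 17.3 and 13 peaks, of a mean of 81.7 on that chromosome. The Zfp640 regions found in vhl-/- but not in wild-type equal lists were all distal intergenic. The 1 Mb windows that start at 65 and 66 Mb hold 1 RefSeq zinc finger gene each.

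Of 28 zinc finger genes tested, limma called 6 higher (Zfp998, Zfp640, Zfp960, Zfp97, Zfp808 and Zfp997) and 5 lower (Zfp534, Zfp985, Zfp268, Zfp990 and Zfp979), or 21.4% and 17.9%, beside 13.2% and 14.3% over all 91 genes tested. The median log2 difference was -0.26, beside -0.28 over all 91. In the full lists the gains of Zfp960, Zfp97 and Zfp997 were not called. Zfp960 (2, 1 and 2 against 7, 6 and 7 peaks) and Zfp97 (3, 3 and 3 against 8, 6 and 8) lie on chromosome 17, and the other 4 higher genes on chromosome 13. All 5 lower genes lie on chromosome 4. Zfp960, Zfp97, Zfp997, Zfp268, Zfp990 and Zfp979 were named after their values were seen. Of all 126 zinc finger genes with a peak, 8 had more in every vhl-/- list (6.35%) and 10 had fewer (7.94%), where the shares over all genes were 1.94% and 2.81%. In the full lists the balance was 4 (2.70%) and 22 (14.9%) of 148, where the shares over all 3166 genes were 0.79% and 5.78%. Only a gene with a peak in every list of a genotype can be counted this way, so genes with many peaks qualify more readily. The number of zinc finger genes with any peak was 72.7 ± 6.43 in wild-type and 69.3 ± 5.69 in vhl-/- equal lists and did not separate the groups.

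The pheromone receptor families also split. Vmn1r genes had 68, 66 and 70 peaks in wild-type and 13, 19 and 17 in vhl-/- equal lists, whereas Vmn2r genes had 18, 22 and 25 against 31, 41 and 51. Of 188 vomeronasal and trace-amine receptor genes with a peak, 12 had fewer in every vhl-/- list (6.38%) and 3 had more (1.60%), beside 2.81% and 1.94% over all genes. In the full lists 30 of 242 had fewer (12.4%, beside 5.78% over all genes) and 1 had more. The 12 were all Vmn1r genes, for example Vmn1r246, with 2, 4 and 4 peaks against 0 in each vhl-/- list, and the 3 were Vmn2r38, Vmn2r43 and Vmn2r95, all named after their values were seen. Outside 20 to 23 Mb of chromosome 7, Vmn1r peaks numbered 14 to 19 and 13 to 17 in the equal lists and overlapped, whereas in the full lists they numbered 27 to 34 and 13 to 19 and did not. The range of Vmn2r peaks in the full lists overlapped too, at 53 to 66 and 31 to 63. Olfactory receptor genes took 0.770 ± 0.192% and 1.12 ± 0.242% of the equal lists (exact permutation p = 0.2), and predicted genes 36.0 ± 0.255% and 36.4 ± 0.969% (p = 0.7).

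**Figure D5:**
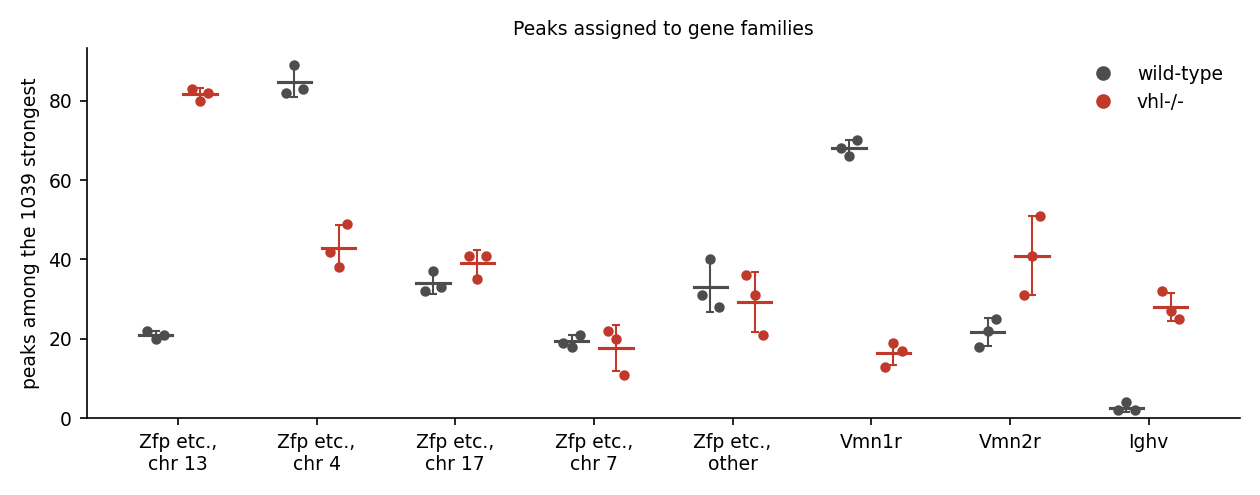
Peaks assigned to gene families among the 1039 strongest of each list, with a point for each library, lines at the means and bars of 1 SD, and zinc finger genes split by chromosome. Zinc finger genes of chromosome 13, Vmn2r genes and Ighv segments are higher in vhl-/-, and zinc finger genes of chromosome 4 and Vmn1r genes are lower.

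Clustered protocadherins, adhesion proteins of neurons, held 12, 12 and 9 peaks in wild-type and 5, 6 and 3 in vhl-/- full lists, but 4 to 6 and 2 to 6 in equal lists, where the groups overlapped. Few or no peaks were assigned to the remaining gene groups. Peaks numbered 0 in all 6 lists for the Hox genes, the 25 HIF target genes examined, the 17 muscle fibre markers and the 16 markers of fibroblasts, immune, endothelial, glial and fat cells, so the lists give no check of the labelled cell type. Of 45 imprinted genes 6 had a peak in some list, among them Herc3, Kcnq1 and Airn, and none had one in all lists of a genotype. Of 19 genes of the H3K9 methylation machinery, Atf7ip, which encodes a partner of SETDB1, was the only one with a peak, in 2 wild-type lists and 1 vhl-/- list.

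Merging overlapping peaks gave 7341 regions over the full lists. A peak was present in all 3 wild-type and no vhl-/- list at 83 of them (1.13%), and in all 3 vhl-/- and no wild-type list at 49 (0.667%). In the equal lists, with 4149 regions, the numbers were 36 (0.868%) and 51 (1.23%). The balance between the directions thus turned with list length. Of the 49 regions found in vhl-/- but not in wild-type full lists, 36 were on chromosome 13 (73.5%) and 40 were distal intergenic (81.6%). The 83 wild-type regions were spread over more autosomes, 15 each on chromosomes 4 and 5 (18.1% each), and 20 were at promoters (24.1%). Among all peaks of the full lists, chromosome 13 held 6.21% in wild-type and 18.4% in vhl-/-, and distal intergenic sequence 59.8% and 62.8%. In wild-type, chromosome 4 held 12.4%, chromosome 5 held 10.4% and promoters held 14.9%. An H3K27me3 peak of a vhl-/- list lay at 1 of the 83 regions (1.20%) and at 1 of the 49 (2.04%), near the shares over all peaks. Of all peaks in the full lists, 0.804% to 0.872% in wild-type and 1.52% to 1.83% in vhl-/- overlapped an H3K27me3 peak of the same genotype.

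The strongest region lost was beside 9230019H11Rik at chr10:3110937-3115764, which had the highest score of each wild-type list, at 2851, 2962 and 2858, and no peak in any vhl-/- list. Its neighbours at chr10:3115867-3117494 and chr10:3109126-3110553 had peaks in the same lists. A region of 19940 bp at the promoter of Gm12735 (chr11:3180533-3200472) scored 662, 389 and 726 in wild-type lists. Intron 1 of Zfp985 (chr4:147567639-147572055), the 5′ UTR of Gm20707 (chr4:147791321-147796420), the promoter of the pseudogene Rpl19-ps1 (chr1:85008064-85012232) and intron 2 of Zfp987 (chr4:146115362-146116859) completed the 8 that ranked highest, all at a mean score percentile of at least 91.3 within their lists.

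The 8 highest-ranking regions found in vhl-/- but not in wild-type lists were all on chromosome 13. The first was in intron 3 of Zfp998 (chr13:66425634-66428835), with scores of 174, 235 and 193, and the second beside Zfp640 (chr13:66695820-66701867), with scores of 218, 149 and 189. The others were intergenic, 3 assigned to Gm10139 (chr13:65521485-65524523, chr13:65484800-65490425 and chr13:65524595-65528226), 2 to Gm26639 (chr13:65620669-65622795 and chr13:65657977-65661126) and 1 to Gm26806 (chr13:66489549-66495022). Their mean score percentiles ran from 94.2 to 97.0.

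Of the regions with a peak in all 6 lists, the 5 that ranked highest were beside Gm5614 (chr9:35305070-35305875), at the promoter of Gm10801 (chr2:98661717-98665630), beside Ly6c2 (chr15:75085149-75087539), beside Gm9075 (chr12:3109372-3110636) and in intron 4 of Chl1 (chr6:103648608-103649746), which encodes a neural adhesion molecule. The Gm5614 region scored 1509, 1483 and 1504 in wild-type and 836, 753 and 714 in vhl-/- lists. Of the 81 regions in all 6 lists, 11 held an H3K27me3 peak of a wild-type list and 13 one of a vhl-/- list. These shares are larger than those over all peaks. The Gm5614, Gm10801, Gm9075 and Chl1 regions held one in all 3 wild-type and in 3, 2, 3 and 2 vhl-/- lists. The Ly6c2 region held one in 0 wild-type lists and 1 vhl-/- list. Whether signal common to both antibodies lies behind this was not tested.

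By rank within the list, 37 of these 81 regions stood higher in every wild-type than in any vhl-/- list (45.7%) and 4 lower (4.94%). At the same rank from the top, however, a percentile is higher in a longer list, and the wild-type lists are longer. Over the 71 regions shared by the equal lists, 13 stood higher in wild-type (18.3%) and 7 higher in vhl-/- (9.86%). Among the 7, the widest gain of rank was beside Cbx3-ps1 (chr13:65902813-65910535), from percentiles of 77.9, 66.4 and 82.7 to 98.6, 99.0 and 98.5, and the next was beside Zfp97 on chromosome 17, from 74.3, 80.3 and 57.5 to 90.0, 83.9 and 88.2. Regions at Zfp979, Zfp985, Zfp534 and Zfp984 on chromosome 4 were among the 13 that stood higher in wild-type. The Cbx3-ps1, Zfp97 and Zfp984 regions were picked after their ranks were seen.

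The lists of the other mutants, which share the wild-type controls, are given side by side. Only full lists of unequal length were used for this, and the comparison was not repeated on equal lists. They too were shorter than the wild-type lists, with 1542, 1588 and 1141 autosomal peaks in HIF1dPA and 1014, 780 and 1306 in mfn2-/-. The block of chromosome 13 from 62 to 67 Mb held 53, 54 and 55 peaks in the full wild-type and 152, 146 and 170 in the full vhl-/- lists. HIF1dPA myofibers, which express a HIF1α that escapes VHL, had 168, 176 and 150 peaks there. The mfn2-/- myofibers, which lack mitofusin 2, had 45, 35 and 41. As a share of the list, the block made up 2.24% to 2.46% in wild-type and 12.9% to 14.6% in vhl-/-. The shares were 10.9% to 13.1% in HIF1dPA and 3.14% to 4.49% in mfn2-/-. Both lay above the wild-type shares, but only in HIF1dPA did the counts lie above wild-type too. In mfn2-/- the counts lay below those of every wild-type list, and the share was higher because the lists were shorter. At Ighv segments the full lists held 4, 8 and 7 peaks in wild-type, 32, 30 and 32 in vhl-/-, 49, 51 and 44 in HIF1dPA and 4, 2 and 5 in mfn2-/-. Vmn1r peaks numbered 119, 148 and 135 in wild-type, 13, 19 and 23 in vhl-/-, 31, 25 and 13 in HIF1dPA and 4, 11 and 14 in mfn2-/- lists. Of the 49 regions found in vhl-/- but not in wild-type lists, 37 had a peak in all 3 HIF1dPA lists (75.5%) and 1 had none there. Of the 81 regions in all 6 lists, 57 had a peak in all 3 HIF1dPA lists (70.4%), and of the 83 wild-type regions 0 did. No mfn2-/- list had a peak at 35 of the 49 (71.4%), 31 of the 81 (38.3%) and 49 of the 83 (59.0%).

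The clusters named here consist of near-identical copies, and the handling of reads that match several copies is not given in the sources used here, so values for single genes inside a cluster are uncertain. Sequencing depth cannot be told apart from genotype in these lists.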

How the data were processed

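ChIP-seq with an H3K9me3 antibody was compared between 3 wild-type and 3 vhl-/- libraries. The submitters' processing notes name BWA 0.7.5, MACS and deepTools 3.5.0 and the build mm10. The authors called peaks for each library separately, and the deposited score of a peak is its p-value as a negative log10 multiplied by 10. Each deposited peak carries a gene and an annotation class. Whether duplicate or multiply matching reads or problem regions were removed is not given in the sources used here, and neither are read totals, so no interval for depth is given.

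Peaks on chromosomes 1 to 19 were used in full and as the 1039 with the highest score. Peaks overlapping by at least 1 bp were merged into regions, and windows measured 1 Mb. Genotypes were compared by exact two-sided permutation tests (Python 3.11.15, numpy 2.4.6) with Benjamini-Hochberg adjustment within a family. Peaks per window and per gene were also tested with limma 3.58.1 (R 4.3.3) on log2(peaks + 1), for features with at least 12 peaks over the 6 equal lists. This test, the limma settings, the block of chromosome 13, the full-list limma calls and the splits of receptor and zinc finger genes were chosen once the data had been seen. The test script was checked on simulated data. Promoters came from RefSeq.

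Genes were named by fixed rules: the 8 regions per direction with the highest mean score percentile among those in all 3 lists of a genotype and none of the other, the 8 genes per direction with the largest difference in mean peak number among those without overlap, and the 5 highest-ranking regions present in all 6 lists. The members, lists and rules were chosen with earlier results of these data known. Alternatives were the list length, a score of at least 100, the 500 strongest peaks, joining peaks within 1000 bp, promoters up to 1 kb, the replicate number as a block and leaving out each library. The input library was not used here.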

Additional observations from a re-analysis of the deposited data

How the results depend on the processing

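Read depth is unknown, so it limits every comparison of peak numbers. Promoter share was the least stable result. Its difference (vhl-/- minus wild-type, in percentage points) was -0.133 on the full lists and -4.65 on equal lists. At a score of at least 100 it was -0.765, and with peaks within 1000 bp joined it was 0.744. It was 0.0599 for promoters up to 1 kb and 0.419 without the block of chromosome 13. Leaving out single libraries gave -1.07 to 0.372. The zinc finger share was higher by 5.32 points on the full lists (4.27 to 6.15 without single libraries), 0.373 at a score of at least 100, and reversed to -2.21 on equal lists without the block. The distal intergenic difference of 2.95 was 0.825 with peaks joined, 0.287 without the block, 8.21 on equal lists and 13.4 at a score of at least 100.

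Regions found only in vhl-/- numbered 49, but 17 at a score of at least 100 and 13 without the block, on full and on equal lists. Regions found only in wild-type numbered 83, but 30 at a score of at least 100, 27 among the 500 strongest peaks and 36 on equal lists, with or without the block. Leaving out a library, which asks for presence in fewer lists, gave 50 to 91 and 103 to 201. Ranks of shared regions moved from 37 higher in wild-type and 4 higher in vhl-/- to 13 and 7 on equal lists. On full lists limma called 60 windows and 64 genes lower, against 13 of each on equal lists, and 3 windows higher, against 9. Without single libraries it called 7 to 14 genes and 11 to 16 windows lower, and 9 to 11 genes and 6 to 9 windows higher. The cause of these moves was not tested, beyond the different lists and samples that enter. The other 147 alternative values kept their direction, and counts stayed within 1.5 times, though p-values bound at 0.1 or 0.25 say nothing of stability.

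Replicate numbers did not pair the samples, with correlations of deviations of 0.158, 0.00302 and -0.0768 for replicates 1 to 3. With the replicate number as a block, limma called 5 windows higher in vhl-/- in place of 9, the 8 arrangements allow no p under 0.25, and no other call or count moved by over 1.5 times. Region counts have no test, so no block was run for them.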
